A study of Homo sapiens with 2 samples.

Results

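Transcription factor IIH (TFIIH) is a complex that RNA polymerase II needs to start transcription and that cells also use to open damaged DNA for nucleotide excision repair. CCNH encodes cyclin H, the cyclin of its kinase module. The 10 genes described here are the subunits of the complex, CCNH, CDK7, MNAT1, ERCC2, ERCC3, GTF2H1, GTF2H2, GTF2H3, GTF2H4 and GTF2H5, out of 49627 genes listed in the data, and all 10 were among the 11186 genes with a mean level of at least 1 FPKM over both libraries. FPKM is the number of sequenced fragments for each kilobase of a transcript, relative to the size of the library. CCNH was selected on its FPKM in these same libraries, as a gene with a large increase among genes above 0 in both, and the other 9 members were added as its partners in the complex, so the values below are a description.

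The study measured RNA from MDA-MB-231, a line of human breast cancer cells of the triple-negative type, with mesenchymal features. The RBMS1 knockdown library (plko_S1) came from cells with stable depletion of RBMS1, an RNA-binding protein, and the control library (plko_ctl) from cells of the same line labelled as the control of that knockdown. According to the study's methods, both kinds of cells were made by lentiviral infection with pLKO.1, carrying an shRNA or left empty, followed by puromycin selection, and were grown without CO2 in L15 medium with serum. Each group has 1 library from 1 stable line, so there was no replicate check, an effect of the knockdown cannot be told apart from a difference between these lines or libraries, and no test was made.

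RBMS1, the target of the shRNA, had 3.76 FPKM in knockdown cells against 24.1 FPKM in control cells, or 15.6% of the control. This depends on which transcripts are counted. The log2 ratio of knockdown over control was −2.40, and it was −0.20 when assembled transcripts of a single exon within the gene were added. Of 7 markers of this line, all were at 9.98 FPKM or more in both libraries. The 6 markers of blood, endothelial, liver and glial cells were at 0.132 FPKM or less. Of 7 markers thought to be low in these cells, ESR1, PGR and CDH1 were below 0.1 FPKM in both libraries, ERBB2, EPCAM and GATA3 were between 1.56 and 7.50 FPKM, and KRT8, a luminal keratin, was at 160 FPKM in knockdown cells and 122 FPKM in control cells. No counts are given, so read depth is unknown, and the median coverage per FPKM was 12.3 for the knockdown and 11.3 for the control library.

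TFIIH has a core and a kinase module. In the core, ERCC3 (XPB) and ERCC2 (XPD) are the DNA-unwinding enzymes, and GTF2H1, GTF2H2, GTF2H3, GTF2H4 and GTF2H5 hold and regulate them. The kinase module, also called the CDK-activating kinase, consists of the kinase CDK7, its cyclin CCNH and the assembly factor MNAT1. It phosphorylates the tail of RNA polymerase II at promoters and activates the kinases that drive the cell cycle.

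CCNH is shown first by the ends of its transcript models, since the reference and the assembled models part there. CCNH (ENSG00000134480) is a minus-strand gene (GRCh38, chr5:87318416-87413019). Its main reference transcript, ENST00000256897, has 9 exons and 1378 nt, of which 969 nt are coding without the stop codon. The transcripts that Cufflinks assembled from the reads of both libraries leave this model after exon 8 and join an alternative exon. Both ends are shown from the first base of exon 8 (chr5:87395044-87395104), 5′ to 3′ on the minus strand as GENCODE release 29 gives them, with the first stop codon in the reading frame in capitals.
reference end, exon 8 and the coding part of exon 9 (chr5:87394446-87394484): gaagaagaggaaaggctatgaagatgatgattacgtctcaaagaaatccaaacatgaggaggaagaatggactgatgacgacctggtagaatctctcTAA
assembled end, exon 8 and the alternative exon up to its stop (chr5:87392860-87392904): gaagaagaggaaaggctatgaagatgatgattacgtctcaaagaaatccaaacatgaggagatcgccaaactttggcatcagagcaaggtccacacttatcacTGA
The first 61 bases are the same. The reference end then adds 36 coding bases before TAA, and the alternative exon adds 42 bases before TGA, so that the reading frame would code for 323 residues with the reference end and for 325 residues with the alternative exon. The alternative exon has 135 nt, 90 of them after the stop. The junction into it is annotated in 4 CCNH transcripts, 2 of them of the nonsense-mediated decay type, 1 a retained intron and 1 a processed transcript, and the files list 2 of these 4, both at 0 FPKM.

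CCNH was at 24.8 FPKM in knockdown cells and 2.00 FPKM in control cells. The log2 ratio of knockdown over control, with 1 FPKM added to each value as for all FPKM ratios below, was 3.10. Cufflinks gives each transcript an interval for the uncertainty within a library. Summed over the CCNH transcripts they spanned 23.0 to 27.6 FPKM in knockdown cells and 1.90 to 3.25 FPKM in control cells, so they were far apart and allow log2 ratios from 2.50 to 3.30. In bulk RNA, fewer cells with a transcript and less of it in each cell cannot be told apart. CCNH was chosen by this increase, so its rank restates the choice and is not a finding. Among 10882 genes above 0 in both libraries CCNH had rank 2 by the increase in FPKM, and among the 9906 protein-coding ones it had rank 1. The gene above it, AC239859.6, is an unprocessed pseudogene with a log2 ratio of 4.28, but its intervals allow ratios from −0.67 to 5.67. The genes just below CCNH were the pseudogene AL669831.4, with a log2 ratio of 2.74, and CLU, which encodes the secreted chaperone clusterin, with a log2 ratio of 2.46. AL669831.4 was at only 0.119 FPKM in the control library, and its intervals allow ratios from −0.57 to 3.91. Those of CLU allow 1.56 to 2.96.

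By transcript, nearly all of the difference in FPKM sat on 1 reference transcript. ENST00000256897 was at 22.5 FPKM in the knockdown library (interval 20.8 to 24.2) and was listed at 0 in the control library, with an upper bound of 0.0438 FPKM. It made up 90.8% of the CCNH FPKM of the knockdown library. All 11 CCNH reference transcripts in the files were listed at 0 in the control library, and in the knockdown library this was the only one above 0. GENCODE release 29 annotates 13 CCNH transcripts.

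In the control library, the CCNH value given above came from 1 assembled transcript, at 2.00 FPKM (interval 1.90 to 2.11) and a coverage of 22.8. The knockdown library had a similar assembled transcript at 2.27 FPKM (interval 2.14 to 2.39) and a coverage of 28.3. Both have 10 exons and start at the same base as the reference transcript, 9 exons are identical in the pair, and 8 of their 9 introns are annotated for CCNH, while the last intron (chr5:87391008-87392769) is in no annotated transcript of that chromosome. That intron leads to 1 very long exon, of 30617 nt in the knockdown library and 43220 nt in the control library, which makes up 95.9% and 97.1% of the length. The assembled transcripts were therefore 31910 nt and 44513 nt long, 23.2 and 32.3 times the length of the reference transcript, and neither holds any base of its last exon.

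**Figure D1:**
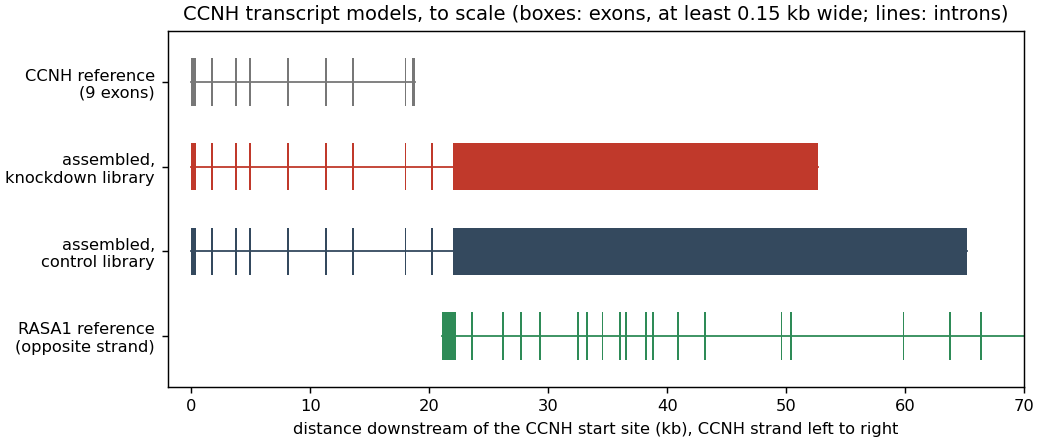
CCNH transcript models by distance from the CCNH start site in kilobases, drawn to scale with boxes for exons (at least 0.15 kb wide) and lines for introns. The assembled models of both libraries follow the reference up to exon 8 and end in an exon of 30617 nt (knockdown) or 43220 nt (control) that lies opposite RASA1, whose model goes on past the right edge.

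The long exon lies inside RASA1 (chr5:87267888-87391931), which encodes a GTPase-activating protein for RAS and is transcribed from the plus strand towards CCNH. Of the long exon, 7.09% in the knockdown model and 5.56% in the control model falls on annotated RASA1 exons, so most of it faces RASA1 introns. RASA1 itself was at 21.7 FPKM in the knockdown library (interval 20.2 to 23.3) and at 29.4 FPKM in the control library (interval 27.5 to 31.4), a log2 ratio of −0.42 with intervals that do not overlap. The sources used here do not state whether the libraries keep the strand, and without it reads of CCNH and RASA1 in this stretch cannot be told apart. Within RASA1 there were also assembled transcripts of a single exon, all on the plus strand and none touching a RASA1 exon, 21 in the knockdown library with 16300 nt in all and 9 in the control library with 3178 nt in all. Outside RASA1, CCNH itself held 1 such transcript, in the control library only (chr5:87408524-87408831). It has 308 nt on the minus strand, touches no annotated CCNH exon and was at 7.68 FPKM (interval 4.25 to 11.1). Single-exon transcripts share no intron with a gene and are in no gene value. When those within a gene and on its strand were added, a choice made after the data were seen, CCNH was at 24.8 FPKM in knockdown cells and 9.69 FPKM in control cells (log2 ratio 1.27), with rank 241 of 11862 genes and rank 196 of 10449 protein-coding genes. RASA1 was then higher rather than lower, at 169 against 105 FPKM, and the log2 ratio of RBMS1 was −0.20 in place of −2.40.

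An FPKM value divides by transcript length, so the long models weigh little in it. FPKM times the transcript length in kilobases approximates the fragments given to a transcript, here called scaled fragments, and on this scale the reference transcript of CCNH had 31.0 scaled fragments in the knockdown library. The assembled transcript had 72.4 in knockdown cells and 89.2 in control cells. The sum for CCNH was then 103 scaled fragments in knockdown cells and 89.2 in control cells (log2 ratio 0.21 with 1 added to each value). The single-exon transcripts within RASA1 held 75.0 scaled fragments with the knockdown and 24.2 in control cells, and the 1 within CCNH held 2.37 in control cells. By the fragments assigned to it CCNH was thus not 2-fold different, with rank 2598 of 10882 genes and rank 2332 of 9906 protein-coding genes. The long exon opposite RASA1 makes up 95.9% (knockdown) and 97.1% (control) of the assembled models, so this scale weighs mostly that stretch. Without the strand, reads of CCNH and RASA1 there cannot be told apart. The sum is therefore not a measure of the annotated CCNH exons, for which no separate ratio was computed.

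**Figure D2:**
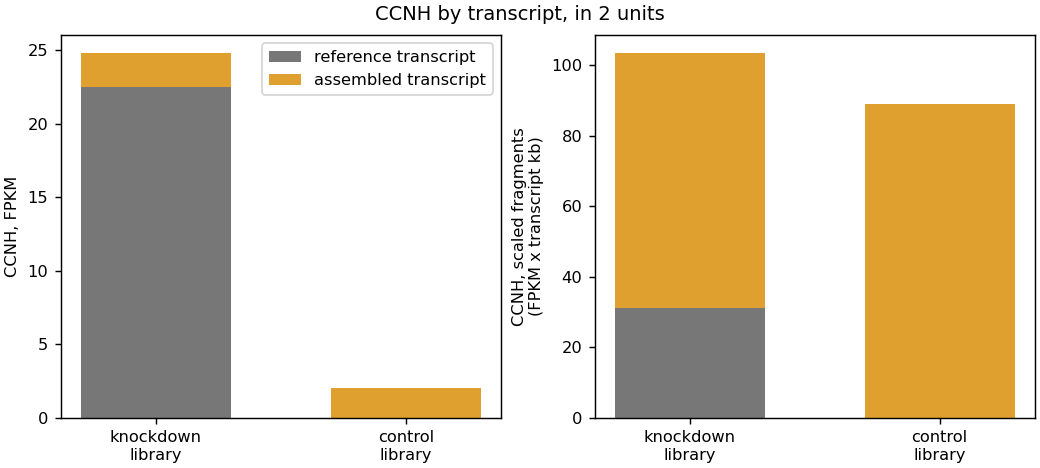
CCNH in each library as FPKM (left axis) and as scaled fragments (right axis), with bars from 0 divided into the reference transcript (grey) and the assembled transcript (orange). The bars are 24.8 and 2.00 FPKM on the left but 103 and 89.2 scaled fragments on the right.

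Reference transcripts listed at 0 in a single library were not limited to CCNH. Of the 10882 genes above 0 in both libraries, 450 (4.14%) had all reference transcripts listed at 0 in exactly 1 library, 227 of them in the control library and 223 in the knockdown library. Of the 227 genes, 12 including CCNH were at least 2-fold higher by FPKM, beside 169 of all 10882. By scaled fragments 8 of the 227 were at least 2-fold higher, CCNH not among them. That stands beside 2.82% of all 11186 genes tested, a set that also holds genes at 0 in 1 library. Exons of at least 10 kb were found in the assembled transcripts given to 144 genes in the knockdown library and to 171 genes in the control library.

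The other subunits of the kinase module differed less than CCNH by FPKM. CDK7 (ENSG00000134058, chr5:69234795-69277430) was at 22.4 FPKM in knockdown cells and 16.8 FPKM in control cells (log2 ratio 0.39), the largest among the 9 partners of CCNH. All of it came from the transcript ENST00000256443, whose own intervals, 20.8 to 24.0 FPKM and 15.5 to 18.2 FPKM, do not overlap. The intervals summed over all CDK7 transcripts, which add the upper bounds of those listed at 0, do overlap. MNAT1 (chr14:60734742-60969953), which holds CDK7 and cyclin H together, was at 27.7 FPKM in knockdown cells and 26.6 FPKM in control cells (log2 ratio 0.05). In scaled fragments CDK7 had 32.2 and 24.2 and MNAT1 33.7 and 32.5 in the knockdown and control libraries, so both ratios were nearly the same on either scale. That of CDK7 was 0.40 by scaled fragments, and that of CCNH was 0.21. On this scale the intervals allow 0.11 to 0.66 for CDK7 and 0.04 to 0.38 for CCNH, so they overlap. The CCNH value also rests mostly on the long exon opposite RASA1.

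By FPKM, without single-exon transcripts, the helicase subunits of the core differed by at most 0.19 on the log2 scale. ERCC2 (chr19:45349837-45370918), the helicase that opens DNA around a lesion, was at 17.2 FPKM in knockdown cells and 16.6 FPKM in control cells (log2 ratio 0.04). ERCC3 (chr2:127257290-127294176), the translocase that opens promoters, was at 14.9 FPKM and 12.9 FPKM (log2 ratio 0.19). Its log2 ratio was 0.20 by scaled fragments and 0.45 with single-exon transcripts added. The only ERCC3 transcript above 0, ENST00000285398, had intervals that just miss each other, with a lower bound of 13.9 FPKM in knockdown cells and an upper bound of 13.8 FPKM in control cells.

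Among the structural subunits, GTF2H1 (chr11:18322295-18367044) was at 24.9 FPKM in knockdown cells and 22.7 FPKM in control cells (log2 ratio 0.13). Its 3 transcripts above 0 went the same way. The coding transcripts ENST00000265963 and ENST00000453096 were at 11.8 against 10.4 FPKM and at 4.80 against 4.40 FPKM, and the retained-intron transcript ENST00000418116 at 8.31 against 7.94 FPKM. GTF2H3 (chr12:123633739-123662606), which pairs with GTF2H2 in the core, was at 13.2 FPKM in knockdown cells and 12.5 FPKM in control cells (log2 ratio 0.07). GTF2H4 (chr6:30908184-30914106), which connects ERCC3 to the core, was at 9.27 and 9.08 FPKM (log2 ratio 0.03). GTF2H5 (chr6:158168350-158199344), a small subunit that stabilises the complex and is mutated in a form of trichothiodystrophy, was at 2.26 and 2.01 FPKM (log2 ratio 0.12), on a transcript of 7481 nt of which 213 nt are coding.

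GTF2H2 (chr5:71032670-71067689), which regulates the helicase ERCC2, was the only member with a lower FPKM in the knockdown library, 5.75 against 7.56 FPKM (log2 ratio −0.34) with intervals that overlap. It was also the only member without a protein-coding transcript above 0: its 4 coding transcripts in the files were listed at 0 in both libraries. Nearly all of its reference FPKM sat on transcripts annotated as retained introns or as targets of nonsense-mediated decay. The retained-intron transcript ENST00000521942 was at 0.941 against 2.46 FPKM, and ENST00000522654 was listed at 0 in the knockdown library and had 1.65 FPKM in the control library. The retained-intron transcript ENST00000523003 was at 2.24 against 2.56 FPKM, and the nonsense-mediated decay transcript ENST00000519783 at 0.694 against 0.831 FPKM. The knockdown library alone had an assembled GTF2H2 transcript, at 1.78 FPKM, and in scaled fragments the gene had 9.50 against 10.6, a log2 ratio of −0.14.

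Reads of GTF2H2 can be divided among near-identical copies on the same chromosome, so its value is uncertain. The coding copy GTF2H2C was at 5.23 FPKM in knockdown cells and 4.97 FPKM in control cells (log2 ratio 0.06), and the pseudogene GTF2H2B at 0.352 and 0.507 FPKM. With reference transcripts only, GTF2H2C was at 3.47 against 2.25 FPKM. With single-exon transcripts added, 2 of these 2 copies were at least 2-fold lower in the knockdown library, beside 5.34% of all genes. The 3 loci together had 11.3 FPKM in knockdown cells and 13.0 FPKM in control cells (log2 ratio −0.19). Of these 2 copies GTF2H2C alone had a mean of at least 1 FPKM, and 3 further symbols of copies, GTF2H2C_2, GTF2H2D and GTF2H2A, are not used in GENCODE release 29.

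Across the complex, 1 of 10 members was at least 2-fold higher in the knockdown library by FPKM and 0 were at least 2-fold lower, beside 2.96% and 2.80% of all genes tested. The intervals of CCNH were apart, and those of the other 9 members overlapped between the libraries, while over all genes 13.3% had non-overlapping intervals with the knockdown library higher and 11.5% with it lower. Nothing is read from the count for CCNH, which was chosen on this contrast. The median log2 ratio was 0.09 over 10 members and 0.07 over the 9 without CCNH, beside 0.02 over all 11186 genes. By scaled fragments 0 of 10 members were 2-fold different, beside 2.82% of genes higher and 2.96% lower, and the median was 0.11 beside 0.01 over all genes.

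Of 105 reference transcripts of the members in the files, 16 were above 0 in either library and 15 reached 0.5 FPKM. In 8 members a single reference transcript was above 0. Among the 15, the intervals of ENST00000256897 of CCNH and the transcripts of CDK7 and ERCC3 were apart with the knockdown library higher, and those of 2 retained-intron transcripts of GTF2H2 with it lower. Over all reference transcripts that reached 0.5 FPKM, 27.6% were apart in the first direction and 24.8% in the other.

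**Figure D3:**
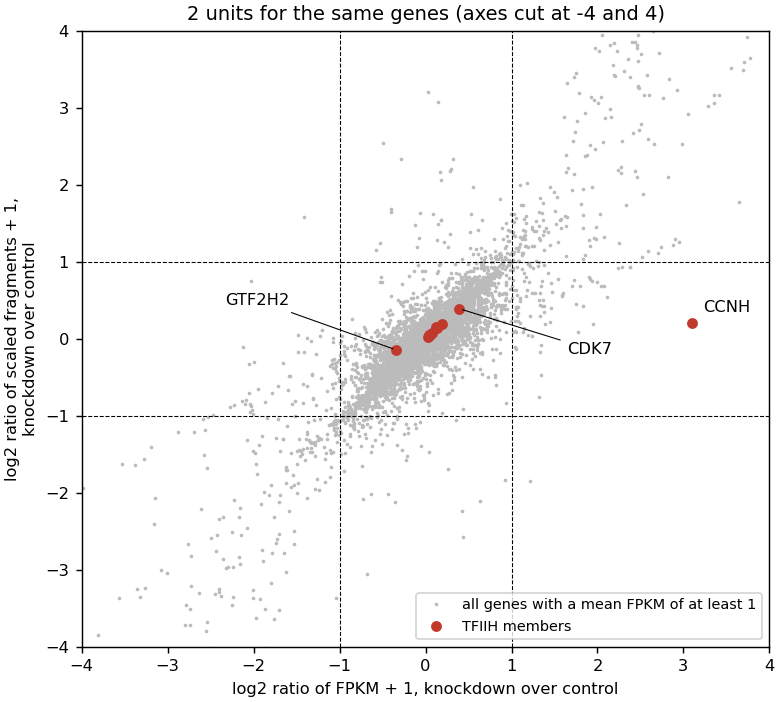
Log2 ratio of knockdown over control for each gene with a mean of at least 1 FPKM, by FPKM (horizontal) and by scaled fragments (vertical), with 1 added to each value, dashed lines at 2-fold and axes cut at −4 and 4. CCNH (red) stands at 3.10 and 0.21, while the other 9 members lie near the diagonal between −0.34 and 0.39 by FPKM.

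The order of the levels was the same in both libraries for the 9 partners, from MNAT1, GTF2H1, CDK7, ERCC2, ERCC3, GTF2H3, GTF2H4 and GTF2H2 down to GTF2H5. CCNH had place 3 of 10 in the knockdown library, between GTF2H1 and CDK7, and the last place in the control library, next to GTF2H5. The last place depends on the measure. In scaled fragments CCNH had 89.2 in the control library, followed by ERCC2 with 69.1. With its single-exon transcript added, CCNH was at 9.69 FPKM there, above the 9.08 FPKM of GTF2H4. In the knockdown library the intervals of neighbours overlapped from MNAT1 down to CDK7 and from ERCC2 down to GTF2H3, and the steps from CDK7 to ERCC2, from GTF2H3 to GTF2H4 and on to GTF2H2 and GTF2H5 exceeded the intervals. In the control library the steps from ERCC2 to ERCC3, from GTF2H3 to GTF2H4 and from GTF2H2 to GTF2H5 exceeded them, and the other neighbours overlapped.

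The partners of TFIIH at the promoter had median log2 ratios of 0.13, beside 0.02 over all genes. Of 22 general transcription factors and TFIID subunits, all with a mean of at least 1 FPKM, 1 was at least 2-fold higher and 0 at least 2-fold lower, beside 2.96% and 2.80% of all genes, and the median log2 ratio was 0.13. With reference transcripts only, 2 were higher and 1 lower, beside 5.31% and 4.87% of all 10407 genes that pass the filter on that basis. With all transcripts the 1 gene was TAF6, a histone-fold subunit of TFIID, at 16.9 FPKM in the knockdown library and listed at 0 in the control library. The lowest ratio was that of GTF2F2, a subunit of TFIIF, at 17.3 against 27.1 FPKM, with log2 ratios of −0.62 by FPKM and −0.04 by scaled fragments, and with reference transcripts only it was higher, at 17.3 against 11.8 FPKM. Of 12 RNA polymerase II subunits, 0 passed 2-fold, with a median log2 ratio of 0.13. Their range ran from POLR2L, a small subunit shared by all nuclear RNA polymerases, at 104 against 185 FPKM and a log2 ratio of −0.82 (−0.50 by scaled fragments), to POLR2G, a subunit of the stalk, at 42.1 against 33.9 FPKM and 0.30. POLR2L was higher with reference transcripts only, at 104 against 69.2 FPKM.

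Among 12 measured kinases and cyclins that act on transcription beside CDK7 and cyclin H, of 14 in the list, the median log2 ratio was 0.08. At least 2-fold higher was 1 and lower 0, beside 2.96% and 2.80% of all genes. With reference transcripts only the counts were 2 and 1, beside 5.31% and 4.87%. With all transcripts the 1 gene was the splicing-linked kinase CDK11A, at 4.57 FPKM in the knockdown library and listed at 0 in the control library. Its near-identical copy CDK11B was at 14.1 and 15.1 FPKM. The lowest ratio was −0.25, of CCNL1, a cyclin partner of the CDK11 kinases, at 6.91 against 8.42 FPKM. By scaled fragments its log2 ratio was 0.08, and its reference transcripts were listed at 0 in the knockdown library and had 3.33 FPKM in the control library.

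Of 24 nucleotide excision repair genes outside the complex 23 had a mean of at least 1 FPKM, and 1 was at least 2-fold higher and 1 at least 2-fold lower, beside 2.96% and 2.80% of all genes, with a median log2 ratio of 0.14. With reference transcripts only, 4 were higher and 1 lower, beside 5.31% and 4.87% of all genes, and with 5 FPKM added in place of 1 the counts were 0 and 0, beside 1.11% and 1.19%. XPC, the sensor that recruits TFIIH to a lesion, had 3.43 FPKM with the knockdown and was listed at 0 in the control library. XRCC1, a scaffold for sealing the repaired strand, was listed at 0 in the knockdown library and had 4.27 FPKM in the control library. ERCC1, part of the nuclease that cuts beside the lesion, was at 32.0 against 19.5 FPKM with log2 ratios of 0.69 by FPKM and 0.13 by scaled fragments. With reference transcripts only it was past 2-fold, at 25.2 against 7.35 FPKM.

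Cell cycle kinases, cyclins and inhibitors, which include the kinases that CDK7 and cyclin H activate, had a median log2 ratio of 0.01 over 16 measured genes of 17, and 0 passed 2-fold, beside 2.96% of all genes higher and 2.80% lower. With reference transcripts only, 0 were at least 2-fold higher and 1 lower, beside 5.31% and 4.87% of all genes. The lowest was CDKN1A, the p53 target that inhibits cyclin-dependent kinases, at 19.1 against 32.4 FPKM and a log2 ratio of −0.74. The highest was the related inhibitor CDKN1B, at 9.78 against 6.47 FPKM and 0.53. CDK1 and CDK2, which CDK7 activates, were at 66.0 against 61.2 FPKM and at 20.7 against 26.9 FPKM. CDK2 was higher with reference transcripts only, at 20.7 against 13.4 FPKM.

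RASA1, the protein-coding gene that overlaps CCNH, had the lower FPKM in the knockdown library given above. Of the nearest protein-coding genes that do not overlap CCNH, COX7C, a subunit of cytochrome c oxidase before it on the chromosome, was at 234 FPKM in knockdown cells and 246 FPKM in control cells (log2 ratio −0.07). TMEM161B, a membrane protein gene after it, was at 9.46 and 9.12 FPKM (log2 ratio 0.05). CDK7, GTF2H2 and CCNH, 3 of the 10 members, lie on chromosome 5.

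The protein-coding genes whose levels were most like those of CCNH, by the distance between their log2(FPKM + 1) values in both libraries, were CLU, PYM1, RARRES2, KRR1 and MALSU1, at distances of 0.67 to 1.10 and over 2 libraries only. CLU was at 25.3 against 3.79 FPKM and PYM1 at 16.2 against 4.49 FPKM. By scaled fragments the log2 ratios were 2.10 for CLU, 1.59 for PYM1, 1.44 for RARRES2, 0.69 for KRR1 and 0.55 for MALSU1. That of CCNH was 0.21, but its scaled fragments lie mostly on the long exon opposite RASA1, so it is not on a like basis. KRR1 was lower with reference transcripts only, at 3.24 against 5.42 FPKM.

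RBMS1 is known to bind RNA with short AU-rich sequence, so AUAUA was searched, on the sense strand only and counting overlapping matches, in the 3′ UTR of the member's most abundant coding transcript. It was present in 7 of 10 members, beside 56.9% of 9959 genes. The 3′ UTR of CCNH has 181 nt and 1 match, shown with the match in capitals and T for U: gaaaacataaaATATAttaaaactttt
It lies in the last exon of the reference transcript. Of 521 UTRs with 0.8 to 1.2 times its length, 17.7% hold the motif. Each member was set beside the median over the UTRs of like length. The matches exceeded it in CCNH (median 0), in GTF2H1 with 9 in 1175 nt (median 1), in GTF2H3 with 6 in 2371 nt (median 3), in MNAT1 with 3 in 329 nt and in ERCC3 with 1 in 306 nt (both medians 0). They did not in GTF2H5 with 7 in 7187 nt (median 12), in GTF2H2 with 4 in 3007 nt (median 4), or in ERCC2 with 0 (median 2), CDK7 and GTF2H4 with 0 (both medians 0). For GTF2H2 the UTR searched belongs to a coding transcript listed at 0. A match is a description of the letters, not a binding site.

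The authors' own table of both libraries holds 7236 transcripts, on its own FPKM scale, and none of CCNH. Of the members it lists 2 transcripts. The coding transcript ENST00000485403 of ERCC2 is listed there at 0 for the knockdown and at 1.83 FPKM for the control library, and ENST00000376316 of GTF2H4 at 2.29 and 0.794 FPKM. Both transcripts are listed at 0 in the files of the single libraries, so the FPKM of these transcripts depends on which of the deposited estimates is used.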

How the data were processed

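RNA was extracted with Trizol and sequenced from 1 RBMS1 knockdown and 1 control library. The submitters' processing notes name Bowtie2 2.0.6, TopHat2 2.0.9, Cufflinks 2.1.1 and Cuffdiff 2.1.1; the genome build is not given in the sources used here. For each library the authors deposited transcripts with FPKM values and intervals from Cufflinks, including reference transcripts at 0, and a table with FPKM of both libraries, log2 fold changes, p-values and q-values, of which only the FPKM columns were used. Reference transcripts were joined by identifier to GENCODE release 29 on GRCh38, where 98.1% of starts agree. A gene's FPKM added up its reference transcripts and any assembled ones with at least 1 intron in common on the same strand (6507 in the knockdown library, 6583 in the control library). Ratios are log2 after adding 1 FPKM, which understates changes of low genes, and genes needed a mean of at least 1 FPKM. With 1 library per group, taken from the labels, no test was possible. The intervals cover the uncertainty within a library only.

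The scaled fragments (FPKM times transcript length) are approximate, because Cufflinks divides by an effective length, and this scale was added after the data were seen. The members and all lists were chosen with earlier results of these data known. Named genes were the 10 members, RBMS1, the lowest and highest measured gene of each list, the overlapping and neighbouring genes of CCNH, the 3 genes ranked next to it, the 5 genes nearest to it, and member transcripts at 0.5 FPKM or more in either library. ERCC1, CDK11B, CDK1, CDK2, KRT8 and the other markers named, and the UTR matches given singly, were picked after their values were seen. The adding up of transcript values to gene sums was tested on simulated data with Python 3.11.15 before use, and figures were drawn with matplotlib 3.10.9. The simulated assembled transcripts were annotated models without their first exon. The test therefore does not cover models with a long added exon, as in CCNH, or the scaled fragments. Alternatives were other sets of transcripts (the set with single-exon ones was also added after the data were seen), pseudocounts, scalings and filters.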

Additional observations from a re-analysis of the deposited data

How the results depend on the processing

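The log2 ratio of CCNH was 3.56 with 0.1 FPKM added, 2.09 with 5 FPKM added and 3.39 by TPM, the direction staying the same, and 0.21 by scaled fragments, where the number of members with a 2-fold difference was 0 in place of 1. With reference transcripts only, with the dominant reference transcript only, or with assembled transcripts whose introns are all annotated, CCNH is listed at 0 in the control library, so no ratio or rank is given. With 1 FPKM added it still counts there as the 1 member with a 2-fold difference. The rank of CCNH among genes above 0 in both libraries was 1 when assembled transcripts had to share at least 2 introns, 3 by TPM and 4 with 0.1 FPKM added, and among protein-coding genes it was 2 with 0.1 FPKM added in place of 1. The table of both libraries lists no CCNH transcript, so that alternative gave no value. With single-exon assembled transcripts within a gene added, the log2 ratio of CCNH was 1.27 and its ranks 241 and 196. That of RBMS1 was then −0.20 in place of −2.40, with intervals that allow −1.42 to 0.89. Across their alternatives the log2 ratios of the other 9 members stayed within the range that their intervals allow, CDK7 from 0.33 to 0.41 and GTF2H2 from −0.78 to −0.10, other than ERCC3, at 0.45 with single-exon transcripts, and the TFIIH median ranged from 0.05 to 0.11. The median of the cell cycle list changed sign, from −0.12 with reference transcripts only to 0.07 by scaled fragments. That of the TFIIH copies, which rests on 1 gene or, without the filter, on 2, ranged from −0.05 without the filter to 0.46 with reference transcripts only, and was −1.90 over 2 genes with single-exon transcripts, where that of the transcriptional kinases was −0.08. The counts of list genes at least 2-fold higher and lower also moved. With the dominant reference transcript only they were 2 and 0 for the general transcription factors, 0 and 1 for the RNA polymerase II subunits, 1 and 1 for the transcriptional kinases, 4 and 1 for the repair genes and 0 and 1 for the cell cycle genes, beside 4.97% and 4.74% of all genes. With single-exon transcripts they were 3 and 3 for the general transcription factors, 2 and 1 for the transcriptional kinases and 0 and 2 for the 2 TFIIH copies, beside 4.69% and 5.34%. With annotated introns only, 1 cell cycle gene was at least 2-fold lower, beside 3.20% of all genes. At a mean of at least 5 FPKM the repair genes and the transcriptional kinases had 0 in either direction, beside 1.93% and 1.90% of all genes, as with 5 FPKM added, beside 1.11% and 1.19%. Without a filter the repair genes had 1 and 2, beside 2.03% and 1.90%. Depth in reads is unknown, and the intervals say nothing of the spread between cultures. No paired analysis was possible because each group has 1 library.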
